A study of Homo sapiens with 19 samples.

Results

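The comparison described here is the knockdown of fibrillarin (FBL) in Kasumi-1 cells that carried no re-expression vector. It takes in 4 of the 19 libraries of the series: 2 of cells with FBL knockdown (FBL KD) and 2 of cells with a control knockdown (control KD). They were chosen by the sample titles and the matching column names, and all 120 listed ribosomal RNA (rRNA) sites were included. Kasumi-1 is an established acute myeloid leukaemia cell line. Both groups were grown in medium with 20% serum and both received doxycycline at 100 ng/ml, so the controls carry the inducing agent too. The columns name the libraries shFBL1 and shFBL2, and shLUC1 and shLUC2. The sources used here do not say whether the numbers 1 and 2 stand for different hairpins or for repeats of one. Nor do they say whether each library had its own culture. The p-values here therefore rest on the spread of the libraries, part or all of which may be technical.

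Fibrillarin is the enzyme that places methyl groups on rRNA within small nucleolar particles of the box C/D class. In each particle a guide RNA of the SNORD family pairs with rRNA and selects the nucleotide whose 2′-hydroxyl receives a methyl group. Most human guides are cut out of introns of host genes, many of which encode ribosomal proteins. RiboMethSeq reads the mark from alkaline hydrolysis: the methyl group protects the neighbouring bond, so few fragments end there. The deposited score C runs from 0, where ends are as frequent as around the site, to 1, where none were counted, and stands for the share of molecules that carry the mark.

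The 2 FBL KD libraries held 9021579 and 5996394 end counts, and the 2 control KD libraries held 6832913 and 5533150. FBL messenger RNA is not seen in these data, so the depth of the knockdown could not be checked. The composition of the counts was not the same in all 4 libraries. The 28S stretch from 2300 to 2500, chosen after its counts were seen, held 45.5% and 49.7% of all counts in the FBL KD libraries, against 9.50% in control KD replicate 1 and 36.2% in control KD replicate 2. In the 15 other libraries of the series it held 7.05% to 11.3%. Control KD replicate 2 thus resembled the FBL KD libraries in this respect and control KD replicate 1 did not. The most counted position of both FBL KD libraries and of control KD replicate 2 was 28S 2401 (3.33%, 3.90% and 2.56% of counts). That position is among the flanks by which the score of 28S-2402 is divided. The part of this share in the results was not tested beyond the values without each library given below.

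Score C was lower in FBL KD cells over most of the listed sites. The mean over the 120 sites was 0.784 and 0.784 in the FBL KD libraries, against 0.884 and 0.887 in the control KD libraries. The difference was -0.102, with 0.784 ± 0.000407 in FBL KD and 0.886 ± 0.00218 in control KD (SD, n = 2 each). An exact two-sided permutation test gave p = 0.333, the smallest that the 6 arrangements of 2 against 2 libraries allow. The median score was 0.882 and 0.888 in FBL KD, against 0.983 and 0.986 in control KD. The number of sites with a score of at least 0.9 was 52 and 53 in the FBL KD libraries, against 94 and 93 in the control KD libraries.

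Site by site, 71 of 120 scores (59.2%) fell and 2 (1.67%) rose at an adjusted p under 0.05 by limma. Each SE and p-value uses a spread shared over 14 knockdown libraries, most of them outside this comparison. The median flanking count of the sites was 329 and 139 in FBL KD and 614 and 248 in control KD. It ran from 972 to 1585 in the vector-bearing libraries of that fit. The shared spread may therefore understate that of the 4 compared libraries. Both FBL KD libraries lay below both control KD libraries at 87 sites (72.5%) and above them at 3 sites (2.5%). Of the 71 falls, 22 were of at least 0.2, 21 were between 0.1 and 0.2 and 28 were smaller than 0.1. The smallest was -0.0177, at 28S-4340, a site picked out after its value was seen. Of the 93 sites that scored at least 0.9 in both control KD libraries, 46 also did so in both FBL KD libraries, and 18 of those 46 were among the falls. The count of falls was 66 without control KD replicate 1 and 61 without control KD replicate 2, and the median change over all sites was -0.0690 and -0.0713 in those fits. Of the 8 listed sites in the 28S stretch from 2300 to 2500 all 8 fell, and of the 112 sites outside it 63 fell.

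These calls depend on what is taken as unmoved between libraries. The score needs no scaling, and none was applied. When the library medians over the listed sites were made equal, which removes a shift of -0.0987, 28 sites were called lower and 51 higher. When the medians of 302 protected positions outside the list were made equal instead, 60 listed sites were called lower and 2 higher.

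The site with the most negative change was 28S-1868, whose guide is SNORD48. It scored 0.0414 and 0.0904 in the FBL KD libraries, against 0.759 and 0.695 in the control KD libraries. The groups were far apart, and the FBL KD mean was 9.06% of the control KD mean. The change was -0.661 ± 0.0400 (SE, n = 2 each; limma, adjusted p = 2.08e-06).

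The second was 28S-2402, guided by SNORD143 and SNORD144. It scored 0 in both FBL KD libraries, against 0.466 and 0.460 in the control KD libraries, so that no protection was measured in the FBL KD libraries. The change was -0.463 ± 0.00954 (SE, n = 2 each; limma, adjusted p = 1.59e-09). The score is set to 0 where the position holds more counts than its flanks. Before that step it was -0.448 and -0.429 in FBL KD. Equal scores of 0 add no spread to the fit, so the SE and the p-value rest in part on that step. The position read for this site had 162644 and 124195 end counts in FBL KD and 8612 and 29150 in control KD, and it lies in the stretch whose share of counts differed between the libraries.

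SNORD50A guides 28S-2863, which scored 0.237 and 0.366 in the FBL KD libraries and 0.764 and 0.746 in the control KD libraries (change -0.453 ± 0.0482 SE, n = 2 each; limma, adjusted p = 4.20e-05). SNORD102, from an intron of the ribosomal protein gene RPL21, guides 28S-4020, with scores of 0.400 and 0.339 in FBL KD against 0.795 in both control KD libraries. Neither site had a control score near 1, and at both the lower control library stood well above the higher FBL KD library. At 28S-1303, the site of SNORD21, the FBL KD scores were 0.481 and 0.263 and the control KD scores 0.848 and 0.745. This was a fall of -0.424 with a wide spread within each group (SE 0.0635; limma, adjusted p = 0.000351).

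18S-1447 is the site of SNORD127, the guide knocked out elsewhere in the series. It scored 0.275 and 0.129 in the FBL KD libraries, against 0.627 and 0.618 in the control KD libraries. The groups did not overlap, and the change of -0.421 ± 0.0666 (SE, n = 2 each) passed the test (limma, adjusted p = 0.000493). It was the most negative call in 18S. In control KD cells this site was itself below the median of the list.

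Several of the strongest falls were at sites that were close to fully protected in the controls. 28S-2388, guided by SNORD68, scored 0.555 and 0.558 in FBL KD against 0.942 and 0.943 in control KD. 28S-3787, guided by SNORD10, scored 0.609 and 0.653 in FBL KD against 0.958 and 0.968 in control KD. 5.8S-75, guided by SNORD96A and SNORD96B, scored 0.677 and 0.711 in FBL KD against 0.970 and 0.981 in control KD. At these sites the replicates of a group lay close together and the groups did not overlap. The changes were -0.386, -0.332 and -0.281, with adjusted p-values of 2.41e-06, 4.28e-06 and 1.75e-06 by limma. At 28S-2811, guided by SNORD95, the change was -0.272 (SE 0.0214), and the FBL KD scores of 0.709 and 0.70 stood against 0.977 and 0.976 in control KD.

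The last pair of the 12 most negative calls rest on few counts. 18S-1705, for which the deposited annotation gives only a predicted guide, scored 0 in both FBL KD libraries, against 0.162 and 0.377 in the control KD libraries. Its mean flanking count was 28.1 and 11.4 in FBL KD and 106 and 24.1 in control KD. 28S-3764, guided by SNORD15A and SNORD15B, scored 0.630 and 0.826 in FBL KD against 0.992 and 1 in control KD, from 12 and 3 end counts against 1 and 0. Neither call was made when the 4 libraries were fitted alone.

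**Figure D1:**
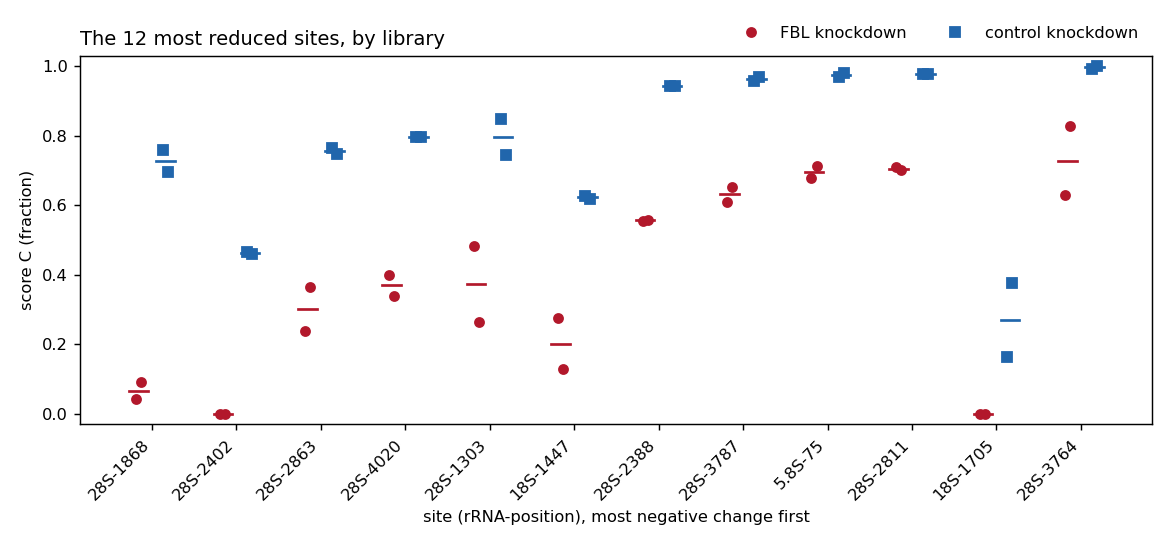
Score C of the 12 sites with the most negative called change, by library (circles: 2 FBL KD libraries; squares: 2 control KD libraries; bars: group means; y axis: score C as a fraction; x axis: site, named by rRNA and position). At every one of these 12 sites both FBL KD libraries lie below both control KD libraries, and at 28S-2402 and 18S-1705 both FBL KD scores are 0.

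18S-174, guided by SNORD45C, was picked out after its values were seen, because its groups stood apart without a call. It scored 0.648 and 0.567 in the FBL KD libraries, against 0.948 and 0.916 in the control KD libraries. The change of -0.324 had an SE of 0.215 and did not pass the test (limma, adjusted p = 0.227). The spread was shared over 14 libraries, and at this site the control KD library with empty vector, replicate 2, scored 0 where replicate 1 scored 0.825. The most counted position of that replicate 2, at 28S 15, held 20.8% of its counts.

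The 2 sites called higher both had a predicted or unknown guide and a low score. 28S-1339 scored 0.196 and 0.0555 in the FBL KD libraries and 0 in both control KD libraries (change 0.126 ± 0.0348 SE, n = 2 each; limma, adjusted p = 0.0117). 18S-1680 scored 0.299 and 0.225 in FBL KD and 0.0375 and 0.0789 in control KD (change 0.204; limma, adjusted p = 0.0429). The groups did not overlap at either site. At 28S-1339 both control KD scores were at the floor of 0, to which negative scores are set. Its change, SE and p-value therefore rest in part on that step. The call at 28S-1339 was not made without control KD replicate 2 or with the 4 libraries alone, and the call at 18S-1680 was not made without any one of the 4 libraries. Another listed site lies within 6 nucleotides of 18S-1680, and its counts enter the flanks there. With flanks of 2 positions the change at 18S-1680 was 0.

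Over the 13 sites with only a predicted or unknown guide, 1 fell and these 2 rose, and the median change was 0.0162, against -0.0676 over all 120 sites. Of these 13 sites 7 were under 0.5 in both control KD libraries. Among sites with 1 numbered guide 47 of 73 fell, and among sites with 2 or more numbered guides 22 of 31 fell (64.4% and 71.0%, against 59.2% over all sites). Their median changes were -0.0846 and -0.0829. Equal library medians gave 20 lower and 31 higher among sites with 1 numbered guide, and 7 lower and 12 higher among those with more. Among the 13 sites with a predicted or unknown guide they gave 1 lower and 5 higher. Of the 3 sites with no numbered guide 1 fell, 28S-2351 (-0.0675), and the median change was -0.00154.

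The share of sites that fell was not the same in 28S and 18S, beside 59.2% over all sites. 28S rRNA forms the core of the large subunit and holds the peptidyl transferase centre. Of its 71 sites 53 (74.6%) fell and 1 rose, with a median change of -0.111. In 18S, the RNA of the small subunit, 17 of 47 sites (36.2%) fell and 1 rose, with a median change of -0.0243. With library medians made equal the counts were 24 lower and 21 higher in 28S, and 3 lower and 29 higher in 18S. Of the 2 sites of 5.8S rRNA, 5.8S-75 fell and 5.8S-14, guided by SNORD71, did not pass the test (change -0.0122; 95% interval -0.0698 to 0.0454). No test of the difference between rRNAs was made, since sites of a library are not replicates.

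The mean over the 28S sites was 0.772 and 0.777 in the FBL KD libraries, against 0.915 and 0.912 in the control KD libraries. The mean over the 18S sites was 0.804 and 0.795 in FBL KD, against 0.838 and 0.848 in control KD. In both rRNAs the 2 FBL KD libraries lay below the 2 control KD libraries, and the gap was wider in 28S.

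Within 28S, the stretch from 2000 to 3500 had 15 of 17 sites lower and a median change of -0.185. The stretch to 2000 had 11 of 15 sites lower and 1 higher (median -0.156), and that from 3500 to 4100 had 17 of 20 lower (median -0.115). Above 4100, in the part of the molecule that includes the peptidyl transferase centre, 10 of 19 sites fell and the median was -0.0554; that share of 52.6% lies near the 59.2% over all sites. In 18S, 6 of 23 sites up to position 670 fell (median -0.0243), and 11 of 24 above it fell with 1 higher (median -0.0315). With library medians made equal, 8 were lower and 3 higher in the 28S stretch from 2000 to 3500, 7 lower and 2 higher in that to 2000, 7 and 7 in that from 3500 to 4100, and 2 lower and 9 higher above 4100. In 18S the same scaling gave 0 lower and 18 higher up to 670, and 3 lower and 11 higher above it. The stretches are a description of where the falls lay, and the comparison between them was not tested.

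**Figure D2:**
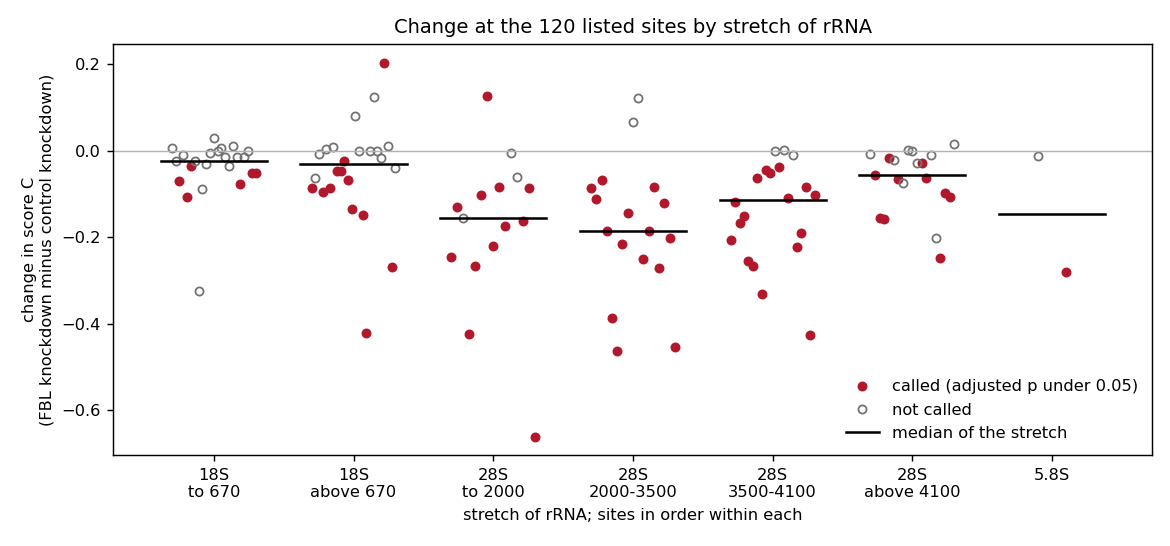
Change in score C (FBL KD minus control KD, y axis) at each of the 120 listed sites, in order of position within each stretch of rRNA (x axis); filled points passed limma at an adjusted p under 0.05, open points did not, and black bars are medians. The 28S stretch from 2000 to 3500 has the lowest median among the 28S and 18S stretches, -0.185, and 18S up to 670 the highest, -0.0243.

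Sites were also grouped by the host gene of their guide, as given by background knowledge; all 61 guides used for this lie inside the host gene in the RefSeq table. The median changes and counts are to be read against 71 of 120 and a median of -0.0676 over all sites. GAS5, a non-coding RNA gene known for its role in growth arrest, hosts guides of 10 sites, of which 7 fell (median -0.0681). Its most negative were 28S-1521, guided by SNORD77 and SNORD80 (-0.175), 28S-391, guided by SNORD81 (-0.130), and 28S-2350, guided by SNORD76 (-0.111). SNHG1, a second non-coding host, has guides of 8 sites, of which 4 fell (median -0.0393). They were 28S-389 of SNORD26 (-0.246), 18S-1391 of SNORD28 (-0.134), and 18S-1383 and 28S-3804 of SNORD30 (-0.0676 and -0.0507). The scores of 18S-1391 rest on 11 and 6 end counts in FBL KD and 2 and 1 in control KD. Equal library medians gave 1 lower and 5 higher among the GAS5 sites, and 1 lower and 6 higher among the SNHG1 sites.

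All 5 sites of the RPL13A guides fell, with a median of -0.0466, the most negative being 28S-2824 of SNORD34 (-0.121). All 4 sites of the RPL7A guides fell, with a median of -0.127, led by 28S-2352 of SNORD24 (-0.185) and 28S-3703 of SNORD36C (-0.168). Over 15 sites of guides in other ribosomal protein genes 11 fell, with a median of -0.0633. 28S-4506, whose guides SNORD35A and SNORD35B lie in different hosts, is counted here and among the RPL13A sites. The 11 falls spanned -0.426 at 28S-4020 to -0.0281 at 28S-4506. Small hosts had 1 called site each: 1 of 2 for RPL23A (18S-116 of SNORD42A and SNORD42B), 1 of 2 for RPL4 (28S-1313 of the SNORD18 guides, -0.267), 1 of 3 for RABGGTB (18S-159, -0.107) and 1 of 3 for NOP56 (18S-1288 of SNORD110, -0.0470). NOP56 itself encodes a core protein of the box C/D particle. Within GAS5 the changes ran from -0.175 to -0.000240. Equal library medians gave 0 lower and 3 higher for RPL13A and 0 lower and 1 higher for RPL7A. For the other ribosomal protein genes they gave 6 lower and 8 higher. For RPL23A and RABGGTB they gave 0 lower and 1 higher each, for RPL4 1 and 1, and for NOP56 0 and 3.

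The deposited annotation gives 15 guides to 2 sites each. SNORD68 guides 28S-2388, which fell by 0.386, and 18S-428, which scored 0.932 and 0.893 in the FBL KD libraries against 0.944 and 0.942 in control KD. That second site did not pass the test (change -0.0302; 95% interval -0.0652 to 0.00473; limma, adjusted p = 0.122). SNORD80 is listed for 28S-1521, which fell by 0.175 and has SNORD77 as a further guide, and for 28S-1612, with 0.988 and 0.994 in FBL KD against 0.997 in both control KD libraries. SNORD62A is listed for 18S-590 (-0.0763) and for 28S-4468, where the FBL KD scores were 1 and 1 and the control KD scores 0.999 and 1.

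At other guides both sites fell. SNORD50A had -0.453 at 28S-2863 and -0.202 at 28S-2848, the second not called without FBL KD replicate 1 or without control KD replicate 2. SNORD95 had -0.272 at 28S-2811 and -0.0846 at 28S-2802, and SNORD24 had -0.185 at 28S-2352 and -0.0871 at 28S-2338. The pair nearest to each other was that of SNORD30, with -0.0676 at 18S-1383 and -0.0507 at 28S-3804. 28S-1612, 28S-2802 and 18S-428 were named after their values were seen, as partners of named sites. Differences between the sites of a pair were not tested.

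**Figure D3:**
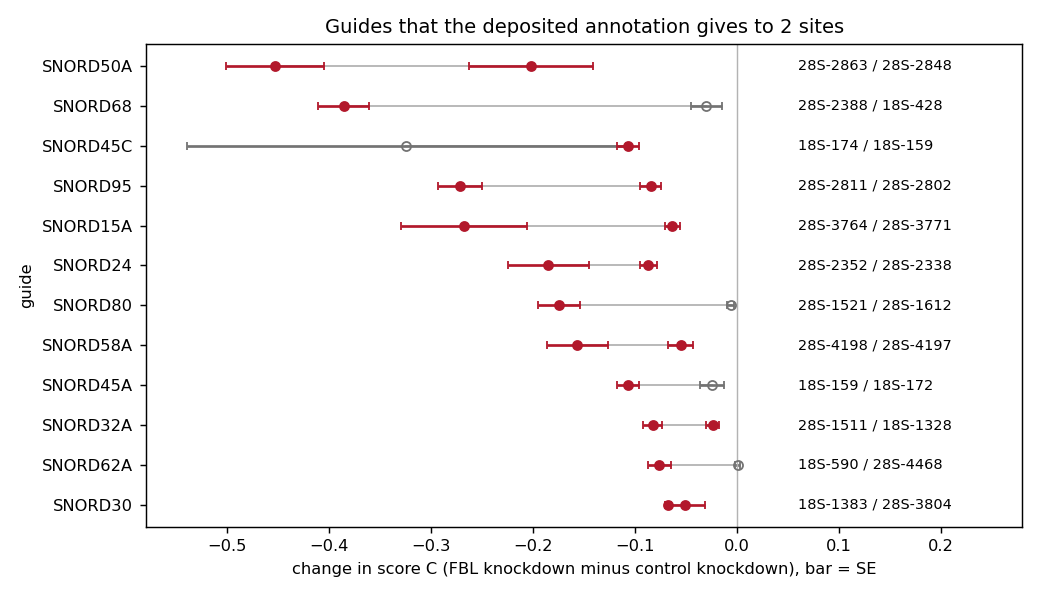
Change in score C (x axis, FBL KD minus control KD; bars are SE) at both sites of guides that the deposited annotation lists for 2 sites (y axis); guides that share both sites with another guide are shown once, filled points passed limma at an adjusted p under 0.05 and open points did not. The widest gap among the pairs shown is that of SNORD68, -0.386 against -0.0302.

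Some sites that were high in the controls showed no change that could be detected. 28S-4469 has no numbered guide in the deposited annotation, and the matching nucleotide of yeast is methylated by Spb1, a stand-alone enzyme whose human relative is FTSJ3. It scored 0.973 and 0.99 in the FBL KD libraries, against 0.984 and 0.982 in the control KD libraries. The groups overlapped and the change was -0.00154 (95% interval -0.0139 to 0.0108; limma, adjusted p = 0.854). The neighbouring 28S-4468 had a change of 0.000656 (95% interval -0.00452 to 0.00583).

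Guided sites with values as close were 18S-1490 of SNORD25, with 0.998 and 0.996 in FBL KD against 0.996 and 0.998 in control KD, and 28S-3809 of SNORD79, with 0.988 and 1 against 0.989 and 1. At 18S-1490 the 95% interval of the change was -0.00846 to 0.00877, and at 28S-3809 it was -0.0163 to 0.0159. With an empty vector 28S-3809 fell more. The difference of changes there, without minus with the vector, was 0.0633 (limma, adjusted p under 0.05). 18S-468 of SNORD83A and 18S-627 of SNORD65 were less well determined, with intervals of -0.0720 to 0.0723 and -0.0581 to 0.0568. Making library medians equal moves the change at every site by the same amount. The changes were then 0.0972 at 28S-4469, 0.0994 at 28S-4468, 0.0989 at 18S-1490, 0.0985 at 28S-3809, 0.0989 at 18S-468 and 0.0981 at 18S-627.

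Site by site, the scores of the 2 FBL KD libraries lay further apart than those of the 2 control KD libraries, most of which were close to 1. The median absolute difference between replicates was 0.0285 in FBL KD and 0.00884 in control KD, and 15 sites in FBL KD and 7 in control KD differed by at least 0.1. The end counts went the other way, with a chi-square per position between replicates of 54.9 in FBL KD and 397 in control KD. The widest gap in score within FBL KD was at 28S-4588, guided by SNORD91A and SNORD91B, with 0.676 and 0.319 in FBL KD against 0.703 and 0.694 in control KD. The groups did not overlap there, but the change of -0.201 ± 0.0994 (SE, n = 2 each) did not pass the test (limma, adjusted p = 0.115). 18S-186, 28S-4560 and 28S-2739 also had replicates of FBL KD far apart, and at all 3 the groups overlapped.

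The end counts gave the same measurement without the division by the flanks. Over 6538 positions of the 3 rRNAs that could be tested, edgeR with TMM scaling called 60 higher (0.918%) and 0 lower in FBL KD, while 523 were lower at an unadjusted p under 0.05 and DESeq2 called 121 higher and 93 lower. 53 of the 60 were the positions read by a listed site, which lie 1 nucleotide after it. That was 44.9% of the 118 such positions tested, with a median log2 ratio of 2.03, against 7 of 6420 other positions (0.109%) with a median log2 ratio of -0.08. Of the 71 sites with a lower score, 52 also had a higher end count. The 1 site with a higher count and no call on its score was 28S-3866 of SNORD47, named after its value was seen.

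The level of these ratios depends on the scaling. TMM gave factors of 0.516 and 0.338 for the FBL KD libraries, against 1.28 and 0.595 for the control KD libraries. With total end counts in place of TMM the median log2 ratio over all positions moved by -1.13, and edgeR then called 45 positions higher, 43 of them read by a listed site, and 2341 lower. Relative to the other positions, the listed ones stood higher under both scalings: their median log2 ratio was 0.90 against -1.21 with total counts. With the 28S stretch from 2300 to 2500 left out, TMM scaling gave 50 higher and 0 lower, 44 of the 50 at positions read by a listed site. Without control KD replicate 2 the calls were 729 higher and 418 lower, and without any one of the other 3 libraries 31 to 39 higher and 0 to 1 lower.

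The largest called log2 ratios were at positions read by the 28S sites between 2300 and 2500. That stretch as a whole held a larger share of counts in the FBL KD than in the control KD libraries. The position of 28S-2411, a site of SNORD6 named after its value was seen, had 11646 and 9532 end counts in FBL KD and 74 and 216 in control KD (log2 ratio 6.63; edgeR, adjusted p = 0.00163). Its score was 0.850 and 0.848 in FBL KD against 0.994 in both control KD libraries. The position of 28S-2350 had 1850 and 998 end counts in FBL KD and 20 and 27 in control KD (log2 ratio 6.57; edgeR, adjusted p = 0.000184). Beside these ratios the score fell by 0.145 at 28S-2411 and by 0.111 at 28S-2350.

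Where no other listed site lay within 12 nucleotides, the higher end counts lay at a single position. Over 46 such sites the median log2 ratio was 1.57 at 1 nucleotide after the site. At the other positions from 6 before to 8 after it lay between -0.20 and -0.04.

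**Figure D4:**
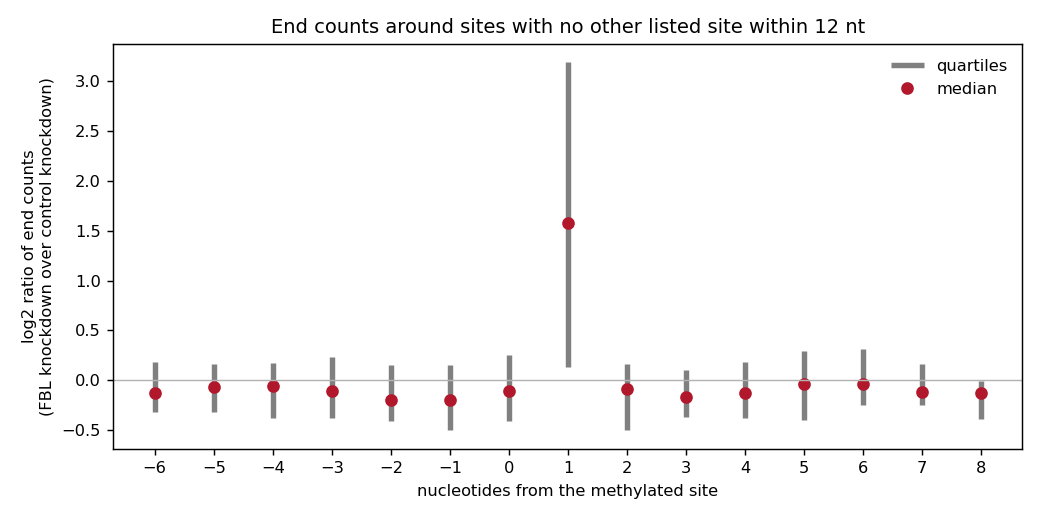
Log2 ratio of end counts (FBL KD over control KD, TMM scaling, y axis) by distance in nucleotides from the listed site (x axis), over the 46 sites that have none of the others within 12 nucleotides; points are medians over sites and bars run between the quartiles. The median is 1.57 at 1 nucleotide after the site and at most -0.04 at the other distances shown.

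Protected positions that are not in the list served as a background measured in the same way. They were the 302 of 6880 unlisted positions with a score of at least 0.75 in both control KD libraries with empty vector, which are in neither group, and a mean flanking count of at least 100. Their median score was 0.893 and 0.882 in the FBL KD libraries, against 0.889 and 0.893 in the control KD libraries. The groups overlapped. limma called 2 lower (0.662%) and 1 higher (0.331%), and 53 had an unadjusted p under 0.05. Chosen by the same score threshold, 100 listed sites had 66 lower, a median change of -0.0717 against 0.00152, and medians of 0.908 and 0.904 in FBL KD against 0.987 and 0.989 in control KD.

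28S-3606 was one of the unlisted positions that fell. It scored 0.805 and 0.792 in the FBL KD libraries, against 0.956 and 0.966 in the control KD libraries (change -0.163 ± 0.0290 SE, n = 2 each; limma, adjusted p = 0.0169). The position read for it had 1745 and 1161 end counts in FBL KD and 497 and 255 in control KD, and it was among the 7 unlisted positions with a higher count (log2 ratio 2.82; edgeR, adjusted p = 0.00244). It lies 74 nucleotides from the nearest listed site.

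The other was 28S-2468, inside the stretch with the altered share of counts. It scored 0.723 and 0.681 in FBL KD against 0.878 and 0.943 in control KD, from 21 and 11 end counts in FBL KD and 25 and 3 in control KD. 28S-1159, named after its value was seen, scored higher, with 0.934 and 1 in FBL KD against 0.749 and 0.739 in control KD, from 2 and 0 end counts against 19 and 4. None of the 3 was called with the 4 libraries fitted alone, and 28S-3606 was not called without FBL KD replicate 2. Leaving out each of the 4 libraries in turn gave 2 to 15 positions lower and 1 to 17 higher, the highest of both without control KD replicate 2.

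**Figure D5:**
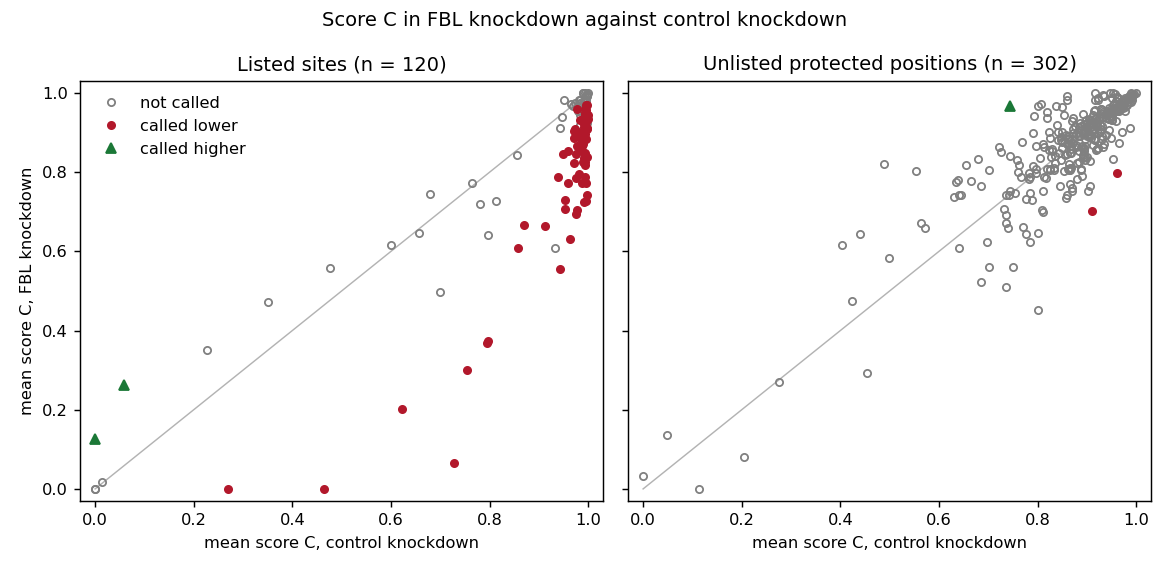
Mean score C in FBL KD (y axis) against that in control KD (x axis) for the 120 listed sites (left) and the 302 unlisted protected positions (right); each point is a site or position, filled circles were called lower and triangles higher by limma at an adjusted p under 0.05, and the line marks equal scores. On the left 71 points are called lower and 2 higher, and on the right 2 lower and 1 higher.

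The series repeats the knockdown in cells with an empty vector, with no library in common. There 81 of 120 sites fell (67.5%) and 1 rose (0.833%) by limma. Of the 71 sites that fell without a vector 93.0% also fell with it, and of the 81 that fell with it 81.5% also fell without. The mean change was -0.102 without the vector and -0.147 with it. Tested as a difference of changes in the same fit, 30 sites (25%) had a positive difference, without minus with the vector, and 6 (5%) a negative one at an adjusted p under 0.05. With the medians of the unlisted protected positions made equal these counts were 12 and 4.

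The site with the largest difference was 28S-2388 of SNORD68, which changed by -0.386 without the vector and by -0.794 with it. Its scores with the vector were 0.0945 and 0.151 in FBL KD, against 0.928 and 0.907 in control KD. The difference was 0.408 (limma, adjusted p = 0.000106). 28S-2388 lies in the 28S stretch from 2300 to 2500. That stretch held 45.5% and 49.7% of counts in the FBL KD libraries without the vector, against 8.49% and 9.71% with it. 28S-2848 of SNORD50A (0.278), 28S-3723 of SNORD87 (0.248) and 28S-1327 of SNORD104 (0.233) followed. 18S-1705 went the other way (-0.269), as it scored 0 in all 4 libraries with empty vector. At 28S-1868 the changes were -0.661 without the vector and -0.737 with it, and the difference did not pass the test (limma, adjusted p = 0.361). The column names of the vector-bearing cells carry the number 4 after shFBL where those without a vector carry 1 and 2. The vector and that number cannot be told apart. Of the 4 libraries without a vector, control KD replicate 1 had a share of counts in the 28S stretch from 2300 to 2500 within the range of the other 15 libraries, and the part of that share in these differences was not tested.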

How the data were processed

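Ribose methylation was measured by RiboMethSeq on total RNA. Per the labels' protocols, alkaline hydrolysis (100 ng of RNA, 12 min, 95 °C) gave fragments near 30 nucleotides, from which small RNA libraries were built. Per the submitters' processing notes, the tools include cutadapt and Bowtie2; no source used here states their versions or settings, the rRNA reference, or which fragment ends were counted.

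The authors deposited whole-number end counts, not normalized, for 7000 rRNA positions (1836 of 18S, 5021 of 28S, 143 of 5.8S). The authors also deposited score C, a fraction from 0 to 1, for 120 sites with their guides. The score was recomputed as 1 minus the count 1 nucleotide after the site divided by the mean of weighted means of 6 positions on either side, weights 1 to 0.5, set to 0 where negative. This gave the deposited value within 1e-09 in 2280 of 2280 pairs of site and library, 117 of them set to 0. Of the 120 sites 44 have another listed site within 6 nucleotides, whose change enters their flanks.

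Mean flanking counts in the 4 libraries had a median of 293 and ran from 10.3 to 112349. The median counting SE of a score was 0.0123, the largest 0.344, and it was over 0.05 in at least 1 library at 32 sites. No molecular identifiers were used, so several reads may come from 1 molecule and these errors cover counting only. Replicates differed beyond sampling noise (chi-square per position 54.9 in FBL KD and 397 in control KD).

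limma 3.58.1 (R 4.3.3) was fitted to the scores (a coefficient per group, variance trend, two-sided, Benjamini-Hochberg over 120 sites at 0.05) over the 14 knockdown libraries, whose 7 groups of 2 share an estimate of the spread. End counts were tested with edgeR 4.0.16 (quasi-likelihood, TMM, filterByExpr) over all positions. DESeq2 1.42.0 was an alternative. Library means were compared by exact permutation. The scripts were tested on simulated data. Python 3.11.15, numpy 2.4.6, pandas 2.3.3, scipy 1.17.1 and matplotlib 3.10.9 were used.

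Sites named are the 12 most negative calls, all positive calls, the 6 with FBL KD libraries furthest apart, the 6 high control sites nearest 0, the 6 called differences from the empty-vector change that were largest, the sites of SNORD127 and FTSJ3, up to 4 called members of each list, and the called unlisted positions that fell; others are marked where named. The sites of 1 host gene are not reported here as a group. The members, lists and tests were chosen with earlier results of these data known. Alternatives covered the samples fitted, variance trend, logit scale held between 0.01 and 0.99, flanks of 2, scores not set to 0, the 10% of sites with fewest flanking counts left out, equal medians, a replicate block, thresholds of 0.9 and 500 for unlisted positions, and each library left out. Scaling by unlisted positions or by total end counts, the 28S stretch from 2300 to 2500 left out, and the block on the 4 libraries alone were added after seeing the data.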

Additional observations from a re-analysis of the deposited data

Results flagged for a closer look

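At 21 of the named sites the change without a vector differed from that with an empty vector at an adjusted p under 0.05 by limma, as a test of the difference itself. The vector and the number after shFBL in the column names cannot be told apart. Differences are given as the change without the vector minus that with it, so a positive value means a smaller fall in score without the vector.

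The largest positive differences were 0.408 at 28S-2388, 0.278 at 28S-2848, 0.248 at 28S-3723, 0.233 at 28S-1327, 0.217 at 28S-2863 and 0.194 at 28S-2402. At 28S-2402 both FBL KD libraries scored 0 without the vector and both scored 0 with the empty vector, so that value is the gap between the control KD levels (0.466 and 0.460 without the vector, 0.652 and 0.662 with it) and gives no measure of more or less loss. Then came 28S-1313 with 0.175, 28S-1858 with 0.157, 28S-3787 with 0.131 and 28S-2811 with 0.109. Smaller positive differences were 0.0841 at 28S-3804, 0.0828 at 28S-2824, 0.0718 at 28S-2791, 0.0633 at 28S-3809, 0.0578 at 18S-1442, 0.0479 at 28S-1511 and 0.0469 at 28S-2338.

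The difference was negative at 4 named sites, with -0.269 at 18S-1705, -0.114 at 28S-1521, -0.103 at 18S-1391 and -0.0274 at 18S-1383. At 18S-1705 all 4 libraries with empty vector scored 0, so no loss could be measured in them. The scores of 18S-1391 without the vector rest on 11 and 6 end counts in FBL KD and 2 and 1 in control KD.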

How the results depend on the processing

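Of the 71 sites called lower, 26 were so called under all 14 alternatives and 48 under all but equal library medians, which gave 28 lower and 51 higher. The 2 higher calls became 1 with the 4 libraries alone, on the logit scale, with flanks of 2, with scores not set to 0, with the sites of fewest flanking counts left out and with the replicate block. With a library left out, lower calls at the listed sites ran from 61 to 72 and higher calls from 0 to 4. Under equal medians the change turned positive at 15 named sites that were called in either fit: 18S-116 (0.0295), 18S-590 (0.0224), 18S-627 (0.0981), 18S-668 (0.0468), 18S-1288 (0.0517), 18S-1326 (0.0521), 18S-1383 (0.0311), 28S-1511 (0.0158), 28S-1858 (0.0128), 28S-2338 (0.0116), 28S-2351 (0.0312), 28S-3804 (0.0480), 28S-3809 (0.0985), 28S-4469 (0.0972) and 28S-4506 (0.0706). 18S-1680 had a change of 0 with flanks of 2. The mean change stayed negative under its alternatives.

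Whether equal replicate numbers mark a pairing cannot be decided here, since there are only 2 and no label ties them. The deviations of equal numbers had r = 0.265 over sites, a positive value that does not exclude a pairing. The TMM factor was lower in replicate 2 of both groups, with 0.338 against 0.516 in FBL KD and 0.595 against 1.28 in control KD. With the replicate number as a block the listed sites gave 70 lower calls, and 54 lower and 0 higher with the 4 libraries alone; the difference from the empty-vector change gave 6 negative and 27 positive, the end counts 11 lower and 81 higher, and the unlisted positions 2 lower and 1 higher.

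For the difference from the empty-vector change, 6 sites were called negative and 30 positive. The negative count was 3 with the compared libraries alone and 19 under equal medians. The positive count was 8 on the logit scale, 12 under equal medians and 12 with the unlisted medians made equal. With a library left out these ran from 2 to 8 and from 17 to 33.

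End counts gave 93 lower and 121 higher with DESeq2, 1 lower with no filter, 33 higher with the 4 libraries alone, and 2341 lower with total counts. With the 28S stretch left out and total counts they gave 15 lower and 31 higher. With a library left out they ran from 0 to 418 lower and from 31 to 729 higher. At the unlisted positions 1 was lower at a threshold of 0.9 and 1 at a flanking count of 500, with 0 higher in both, and 0 in either direction with the 4 libraries alone. With a library left out these ran from 2 to 15 lower and from 1 to 17 higher. The cause of these differences was not tested. A lone library left in a group was assumed to vary like the others. Depth limits sites such as 18S-1391, 18S-1705 and 28S-3764, where a handful of counts sets the score.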
